A study of Mus musculus with 2 samples.

Results

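The genes described here are 10 components and readouts of insulin and insulin-like growth factor (IGF) signalling, taken by symbol from the 54532 genes of the deposited table. They are the receptor genes Insr and Igf1r, the adaptor genes Irs1 and Irs2, the transcription factor genes Foxo1, Foxo3 and Foxo4, and Fbxo32, Pik3ip1 and Tsc22d3, which FOXO factors are known to activate. The set was chosen by gene name with the levels of these genes in both libraries already known, so their values are a description. The PKCi library came from CMT167R cells given 50 nM of a compound named only as PKCi, for 24 h, and the CON library from CMT167R cells left untreated. Both groups are the same line, a derivative of the mouse lung carcinoma line CMT167 that the labels call resistant to anti-PD1, an antibody against the T cell checkpoint receptor PD-1. Each group was 1 library, so no difference has a replicate check and no p-value is given. No label identifies the compound or says how many cultures or clones stood behind a library.

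When insulin or IGF binds its receptor, the receptor tyrosine kinase phosphorylates IRS adaptors, which recruit PI3-kinase and through it activate the kinase AKT. AKT phosphorylates FOXO factors, which then leave the nucleus, so FOXO target genes are transcribed less when the pathway is active and more when it is not. Several FOXO targets, Insr and Irs2 among them, encode parts of the same pathway, a feedback that restores sensitivity when signalling is low. Messenger RNA counts do not measure phosphorylation or the location of these proteins.

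The PKCi library held 16071153 gene counts and the CON library 16090186. Levels are counts per 1000000 counts of the library (CPM), so that 1 CPM equals 16.1 counts in both libraries, and a gene without counts could still lie at up to 0.187 CPM (PKCi) or 0.186 CPM (CON), the level of 3 counts. Of all genes, 12273 were measured, meaning at least 1 CPM in at least 1 library. Keratin genes of simple epithelium were abundant, with Krt8 at 1182 CPM in the PKCi library and 933 CPM in the CON library, whereas Epcam was at 6.28 CPM (PKCi) and 3.48 CPM (CON) and 0 of 7 lung alveolar and airway markers were measured. Markers of other cells were scarce: 8 leukocyte markers summed to 6.72 CPM in the PKCi library and 10.6 CPM in the CON library, with Ptprc at 0 in both, 6 fibroblast markers to 13.9 CPM (PKCi) and 12.8 CPM (CON), and 4 endothelial markers to 1.18 CPM (PKCi) and 0.622 CPM (CON). One protocol text in the labels speaks of retinas, but 7 retina markers had 1 count in all in the PKCi library and 3 in the CON library. The part of these other cells in the results below was not tested. In bulk RNA, fewer cells expressing a gene and less RNA per cell cannot be told apart.

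Of the 10 genes, 3 were higher in the PKCi library by 2-fold or more and 0 were lower by as much, counted on the scale log2((PKCi + 1)/(CON + 1)) in CPM. Among all 12273 measured genes 6.53% were higher by that margin and 5.13% lower. Since the genes were picked with these levels known, nothing is read from that difference. The 3 were Fbxo32, Tsc22d3 and Irs2. All 10 genes were measured, 9 had a log2 ratio above 0 and 1 below, and their median was 0.55, against −0.01 over all measured genes. The plain ratio of CPM had a 95% interval above 1 for 9 genes and an interval holding 1 for Igf1r. These intervals are exact conditional binomial (Clopper-Pearson) intervals from the counts. They cover counting error only, because each group was 1 library and spread between cultures does not enter them. PCR copies cannot be told from separate molecules without molecular identifiers, and such copies would make the intervals too narrow.

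**Figure D1:**
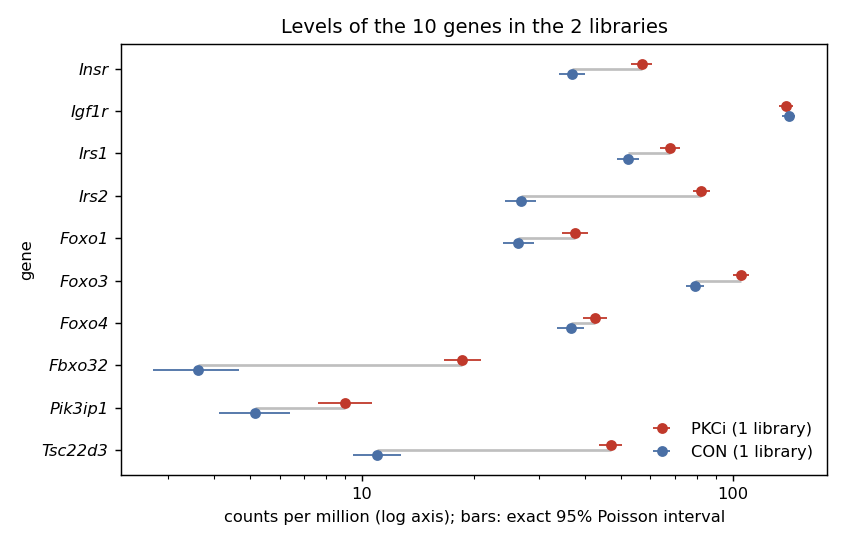
Level of each of the 10 genes in CPM (log axis) in the PKCi library (red) and the CON library (blue), 1 library each, with exact 95% Poisson intervals of the counts. Fbxo32, Tsc22d3 and Irs2 lie farthest apart, and the points of Igf1r, at 139 CPM (PKCi) and 142 CPM (CON), nearly coincide.

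The promoter windows of Irs1 and Irs2 are shown because these close relatives differed in how far apart their libraries stood, while both windows hold the same short letters. Each runs from 250 bases before to 50 bases after the RefSeq start of the gene on GRCm38.p6 and is read 5′ to 3′ along the gene. The Irs1 window is chr1:82291390-82291689 on the minus strand and the Irs2 window chr8:11008880-11009179 on the minus strand. Capitals mark CAAAACA or its reverse complement TGTTTTG, the core letters of the insulin response element that FOXO factors bind, and CACGTG, the E-box that basic helix-loop-helix factors such as TFE3 and MYC bind.
Irs1: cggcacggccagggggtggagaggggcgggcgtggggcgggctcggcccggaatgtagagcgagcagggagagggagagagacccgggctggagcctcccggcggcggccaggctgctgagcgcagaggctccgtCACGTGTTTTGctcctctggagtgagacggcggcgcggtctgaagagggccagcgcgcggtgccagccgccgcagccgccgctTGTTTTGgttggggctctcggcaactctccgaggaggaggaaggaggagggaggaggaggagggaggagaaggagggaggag
Irs2: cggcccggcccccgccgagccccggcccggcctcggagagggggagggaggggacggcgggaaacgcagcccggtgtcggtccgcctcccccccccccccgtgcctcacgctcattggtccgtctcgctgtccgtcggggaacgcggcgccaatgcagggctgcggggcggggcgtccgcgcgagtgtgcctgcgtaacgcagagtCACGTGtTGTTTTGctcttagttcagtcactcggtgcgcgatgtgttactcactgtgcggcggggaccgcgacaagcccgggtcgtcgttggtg

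The Irs2 window held CACGTG beginning 44 bases before the start and TGTTTTG beginning 37 bases before it, separated by 1 base. The RefSeq start used for Irs2 lay 471 bases upstream of the gene start in the deposited table, so this window lies wholly upstream of the gene as listed there, whereas for Irs1 both starts lay 23 bases apart. In the Irs1 window CACGTG began 115 bases before the start and shared its last bases with a TGTTTTG that began 111 bases before it, and another TGTTTTG began 32 bases before the start. Over all 32851 RefSeq promoter windows of the same length, 6.28% held CAAAACA on either strand, 7.15% held CACGTG and 0.408% held both. These shares are not matched for base composition. G and C made up 71.3% of the Irs1 window and 72% of the Irs2 window, against a median of 52.7% over all windows. Both motifs were chosen after these windows had been read. The longer FOXO consensus GTAAACA or TGTTTAC was in none of the 9 windows that belong to 7 of the 10 genes, and in 3.65% of all windows. The shorter core AAACA or TGTTT, which lies inside both longer motifs, was in the windows of Irs1, Irs2, Foxo1, Pik3ip1 and Tsc22d3 and in 50.5% of all windows. Tsc22d3 has 3 RefSeq starts, and the core was in 2 of their windows. Matches of letters are not binding sites, and windows for Insr, Foxo4 and Fbxo32 were not used here.

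The receptor genes differed from each other. Insr, which encodes the insulin receptor, was at 56.9 CPM in the PKCi library (915 counts) and 36.9 CPM in the CON library (594 counts), 1.54-fold higher (95% interval 1.39 to 1.71). The gene (ENSMUSG00000005534) lies on chromosome 8 (bases 3122061 to 3279617, minus strand) of GRCm38. Igf1r, the receptor of IGF1 and IGF2, had 2235 counts in the PKCi library and 2278 in the CON library, a ratio of 0.982 (95% interval 0.926 to 1.04), so no difference was detectable at this depth although it had the most counts of the 10 genes in both libraries. It lies on chromosome 7 (bases 67952827 to 68233668, plus strand). Per listed gene length, Igf1r stood at 27.1 and Insr at 13.5 TPM (counts divided by length, scaled to a sum of 1000000) in the PKCi library, against 27.4 and 8.72 TPM in the CON library. Insr thus made up 33.3% of the summed TPM of both receptors in the PKCi library and 24.2% in the CON library. A hybrid receptor can form from both proteins, which these counts do not show. Igf2r, which takes up IGF2 for breakdown and carries no tyrosine kinase, was at 221 CPM in the PKCi library and 273 CPM in the CON library (1.23-fold lower, 95% interval 1.18 to 1.29), and Insrr had 0 counts in both.

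Of the ligands, the PKCi library held less Igf1 and more Igf2 than the CON library. Igf1, which signals through the IGF1 receptor, had 4 counts in the PKCi library and 40 in the CON library (9.99-fold lower, 95% interval 3.61 to 38.4). It counted as measured through the CON library alone. Igf2 was at 21.8 CPM (PKCi) and 12.5 CPM (CON), with 350 counts (PKCi) and 201 counts (CON) (1.74-fold higher, 95% interval 1.46 to 2.08). The insulin genes Ins1 and Ins2 had 0 counts in both libraries. Among the 2 measured ligand genes the 2-fold line was thus passed by 1, downwards. Igf1 is also made by macrophages and fibroblasts; the summed leukocyte markers above were lower in the PKCi library, the fibroblast markers were not, and their part in this difference was not tested.

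The adaptor genes stood in opposite order in the libraries. Irs2 was at 82.3 CPM in the PKCi library (1323 counts) and 26.8 CPM in the CON library (432 counts), 3.07-fold higher (95% interval 2.75 to 3.43), and its log2 ratio of 1.58 ranked 247 from the top of all measured genes. Irs1 was at 67.8 CPM in the PKCi library (1090 counts) and 52.3 CPM in the CON library (841 counts), 1.30-fold higher (95% interval 1.18 to 1.42). Both proteins dock PI3-kinase onto active receptors, and Irs2 is the one known for its strong control by FOXO factors in liver. Per length, Irs2 was at 42.5 TPM and Irs1 at 24.2 TPM in the PKCi library, against 13.8 TPM for Irs2 and 18.6 TPM for Irs1 in the CON library. Irs2 accordingly made up 63.7% of their summed TPM in the PKCi library and 42.6% in the CON library, and the sum itself was 66.7 TPM (PKCi) and 32.4 TPM (CON). Irs1 (ENSMUSG00000055980) spans chromosome 1 from 82233101 to 82291416 and Irs2 (ENSMUSG00000038894) chromosome 8 from 10984681 to 11008458, both on the minus strand. Exons of other annotated genes on the opposite strand overlap both, with at most 1 count in either library for these partners. The overlap covers 2822 of the 9144 exon bases of Irs1 and 162 bases of Irs2. How reads in such shared bases were counted is not known, so the Irs1 level and the shares above could depend on it.

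**Figure D2:**
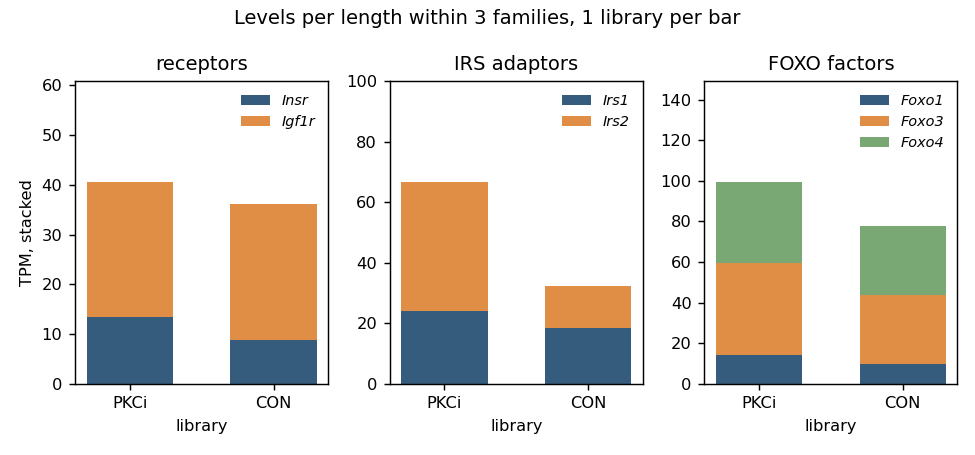
Levels per length (TPM, stacked) of the receptor, IRS adaptor and FOXO genes, 1 library per bar, PKCi left and CON right in each panel; the vertical scales differ. Irs2 takes 42.5 of 66.7 TPM in the PKCi bar and 13.8 of 32.4 TPM in the CON bar, while the receptor and FOXO bars keep closer proportions.

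The remaining adaptors differed less. Of 8 measured receptor adaptor genes only Irs2 was at least 2-fold higher, 0 lower by as much, and the median log2 ratio was 0.23. Sh2b2, an adaptor that binds the insulin receptor and is also called APS, was next at 6.97 CPM (PKCi) and 3.17 CPM (CON) (2.20-fold higher as a plain ratio, 95% interval 1.57 to 3.12), under 2-fold once 1 CPM was added to each level. It was named after its value was seen. Of 6 measured inhibitors of receptor signalling, 1 was at least 2-fold higher, 0 lower by as much, and the median log2 ratio was 0.48. This was Trib3, a pseudokinase known to bind AKT and to respond to stress, at 125 CPM in the PKCi library and 54.4 CPM in the CON library (2.30-fold higher, 95% interval 2.12 to 2.49).

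Pik3ip1, a membrane protein that binds and restrains the catalytic subunit of PI3-kinase, was at 9.02 CPM in the PKCi library (145 counts) and 5.16 CPM in the CON library (83 counts). It was 1.75-fold higher, and its 95% interval of 1.33 to 2.32 is among the widest of the 10 because its counts are among the lowest. The gene (ENSMUSG00000034614) lies on chromosome 11 (bases 3330401 to 3342971, plus strand). The PI3-kinase subunits themselves went in both directions. Of 7 measured genes of the subunit list, which counts Pik3ip1, 0 were at least 2-fold higher, 0 lower by as much, and the median log2 ratio was −0.32. The catalytic subunit gene Pik3ca was at 134 CPM (PKCi) and 112 CPM (CON) (1.19-fold higher, 95% interval 1.12 to 1.27). The main regulatory subunit gene Pik3r1 was at 106 CPM in the PKCi library and 160 CPM in the CON library, 1.52-fold lower (95% interval 1.42 to 1.61).

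Downstream of PI3-kinase, phosphatases of its lipid products included higher members, and Akt1 and Akt2 differed less. Of 7 measured phosphatase genes 3 were at least 2-fold higher, 0 lower by as much, and the median log2 ratio was 0.49. These were Inpp4b at 31.0 CPM (PKCi) and 9.01 CPM (CON) (3.44-fold higher, 95% interval 2.85 to 4.17), Inpp4a at 28.4 CPM (PKCi) and 11.9 CPM (CON) (2.38-fold) and Inpp5k at 31.9 CPM (PKCi) and 14.5 CPM (CON) (2.20-fold). INPP4A and INPP4B remove the 4-phosphate and INPP5K the 5-phosphate of inositol lipids. Akt1 was at 471 CPM in the PKCi library and 537 CPM in the CON library and Akt2 at 104 CPM (PKCi) and 128 CPM (CON). Of 11 measured genes of the AKT, PDK1, SGK and mTORC2 list, 1 was at least 2-fold higher, 0 lower by as much, and the median log2 ratio was 0.22. This was Sgk1, a kinase that also phosphorylates FOXO3, at 649 CPM in the PKCi library and 274 CPM in the CON library (2.37-fold higher, 95% interval 2.29 to 2.46). In the mTORC1 list 0 of 10 measured genes and in the GSK3 and glycogen list 0 of 5 were at least 2-fold apart in either direction, with medians of 0.04 and −0.06.

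All 3 measured FOXO factor genes were somewhat higher in the PKCi library, each less than 1.5-fold. Foxo1 was at 37.6 CPM in the PKCi library (605 counts) and 26.4 CPM in the CON library (425 counts), 1.43-fold higher (95% interval 1.26 to 1.62). Foxo3 was at 105 CPM in the PKCi library (1691 counts) and 79.1 CPM in the CON library (1273 counts), 1.33-fold higher (95% interval 1.24 to 1.43). Foxo4 was at 42.5 CPM in the PKCi library (683 counts) and 36.5 CPM in the CON library (588 counts), 1.16-fold higher (95% interval 1.04 to 1.30). These factors share a forkhead DNA-binding domain and many targets. Foxo6, the family member best known from brain, had 12 counts in the PKCi library and 13 in the CON library. Per length, Foxo3 at 45.4 TPM and Foxo4 at 39.8 TPM exceeded Foxo1 at 14.2 TPM in the PKCi library, and in the CON library Foxo3 and Foxo4, at 33.9 and 34.1 TPM, again exceeded Foxo1 at 9.90 TPM. The order of Foxo3 and Foxo4 was not resolved in the CON library, where their counting intervals overlap. Foxo1 (ENSMUSG00000044167) lies on chromosome 3 from 52268336 to 52353221, Foxo3 (ENSMUSG00000048756) on chromosome 10 from 42181841 to 42276755 and Foxo4 (ENSMUSG00000042903) on chromosome X from 101254528 to 101260873.

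Of 14 measured modifiers and partners of FOXO proteins 1 was at least 2-fold higher, 0 lower by as much, and the median log2 ratio was 0.12. This was Sfn, the 14-3-3 sigma gene, whose relatives hold phosphorylated FOXO in the cytoplasm, at 12.5 CPM in the PKCi library and 4.35 CPM in the CON library (2.87-fold higher, 95% interval 2.18 to 3.83). Skp2, a ubiquitin ligase subunit that targets FOXO1, had 34.8 CPM in the PKCi library and 70.1 CPM in the CON library, 2.02-fold lower as a plain ratio (95% interval 1.82 to 2.23) and under 2-fold once 1 CPM was added to each level (log2 ratio −0.99), and was named after its value was seen. With 0.5 CPM added, or with library sizes scaled by the trimmed mean of M-values (TMM), Skp2 passed 2-fold and the list had 1 gene lower, and with 5 CPM added Sfn was under 2-fold and 0 genes of the list were higher.

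Fbxo32 had the highest ratio of the 10 genes. It encodes atrogin-1, an F-box protein of a ubiquitin ligase that FOXO factors induce in wasting muscle. It was at 18.7 CPM in the PKCi library (300 counts) and 3.60 CPM in the CON library (58 counts), 5.18-fold higher (95% interval 3.90 to 6.98). Its log2 ratio of 2.09 ranked 109 from the top of 12273 measured genes. The gene (ENSMUSG00000022358) lies on chromosome 15 (bases 58175879 to 58214932, minus strand), and an antisense gene that overlaps 186 bases of its exons had 0 counts in the PKCi library and 5 in the CON library. Trim63, the other classic atrophy ligase gene, had 0 counts in both libraries. Per length, Fbxo32 was the lowest of the 10 genes in the CON library at 1.68 TPM and stood above only Pik3ip1 in the PKCi library, at 8.74 against 6.90 TPM, where the counting intervals of these 2 overlap.

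Tsc22d3 encodes GILZ, a leucine zipper protein induced by glucocorticoids and by FOXO3 that restrains NF-kB and AP-1. It was at 46.9 CPM in the PKCi library (754 counts) and 11.0 CPM in the CON library (177 counts), 4.26-fold higher (95% interval 3.62 to 5.05), and by log2 ratio it ranked 122 from the top. The gene (ENSMUSG00000031431) lies on chromosome X (bases 140539528 to 140600659, minus strand), and GENCODE M21 lists 6 transcripts for it, which counts per gene do not separate. Within its family Tsc22d1 was at 627 CPM in the PKCi library and 288 CPM in the CON library (2.18-fold higher, 95% interval 2.10 to 2.25). Tsc22d4 was at 58.7 CPM (PKCi) and 54.7 CPM (CON) (1.07-fold, 95% interval 0.979 to 1.18). Of the 4 TSC22 genes 2 (50.0%, beside 6.53% over all genes measured) were thus at least 2-fold higher and 0 lower by as much. The median was 0.61, and this list too was written with results of these libraries known. Per length, Tsc22d3 made up 11.2% of the summed TPM of the family in the PKCi library and 4.99% in the CON library, and Tsc22d1 was the most abundant member at 72.0% (PKCi) and 63.1% (CON).

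**Figure D3:**
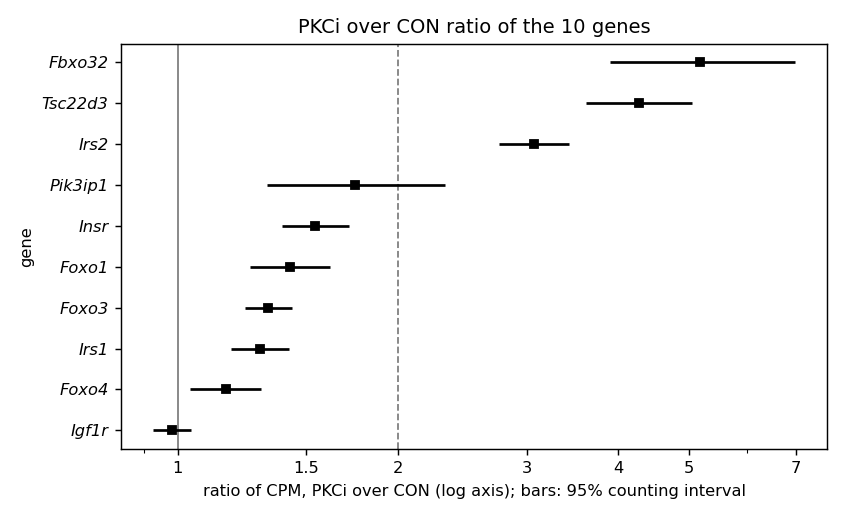
Ratio of CPM, PKCi over CON (log axis), of the 10 genes in descending order, with 95% counting intervals; the solid line marks a ratio of 1 and the dashed line 2. Fbxo32, Tsc22d3 and Irs2 lie wholly right of the dashed line, Pik3ip1 spans it at 1.75 (1.33 to 2.32), and Igf1r spans 1.

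Because glucocorticoids also induce Tsc22d3, a list of their responsive genes was set beside it. Most measured genes of this list also stood higher in the PKCi library, with 8 log2 ratios above 0 and 4 below. The 2-fold line was passed upwards by 7 of its 12 measured genes (58.3%, beside 6.53% over all genes) and downwards by 1. Its median log2 ratio was 1.07, and without Tsc22d3 it was 1.00. This list too was written with results of these libraries known. Apart from Tsc22d3, the higher genes with the largest ratios were the transcription factor gene Cebpd at 118 CPM in the PKCi library and 37.7 CPM in the CON library (3.14-fold), the MAP kinase phosphatase gene Dusp1 at 123 CPM (PKCi) and 42.2 CPM (CON) (2.91-fold), Ddit4, an inhibitor of mTORC1, at 287 CPM (PKCi) and 113 CPM (CON) (2.54-fold), Sgk1 as above, and the EGF receptor inhibitor gene Errfi1 at 819 CPM (PKCi) and 373 CPM (CON) (2.20-fold). Fkbp5, a chaperone of the glucocorticoid receptor and a widely used readout of it, was lower, at 37.3 CPM in the PKCi library and 70.2 CPM in the CON library (1.88-fold lower, 95% interval 1.70 to 2.08). The receptor gene Nr3c1 was at 86.2 CPM (PKCi) and 105 CPM (CON) (1.21-fold lower, 95% interval 1.13 to 1.30). The metallothionein gene Mt1, named after its value was seen, was the gene at least 2-fold lower, at 231 CPM (PKCi) and 498 CPM (CON). Most genes of this list also respond to other signals, and Tsc22d3 and Ddit4 stand in the list of FOXO-activated targets too. Which signal acted was not tested for either list.

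Genes that FOXO factors are known to activate were mostly higher in the PKCi library, beyond those among the 10. Of 43 listed genes 32 were measured, of which 17 (53.1%, beside 6.53% over all genes measured) were higher by 2-fold or more and 1 (Gadd45b) lower by as much. A log2 ratio above 0 was seen for 27 and below 0 for 5, with the median at 1.07. Without the 5 of them that belong to the 10 genes (Insr, Irs2, Fbxo32, Pik3ip1 and Tsc22d3), 14 of 27 were at least 2-fold higher, 1 lower by as much, and the median log2 ratio was 1.05. The list was written with results of these libraries known and is no independent evidence of a direction. Besides Fbxo32 and Tsc22d3, the largest ratios belonged to Klf2, a Krueppel-like transcription factor, with 724 counts in the PKCi library and 24 in the CON library (30.2-fold higher, 95% interval 20.1 to 47.4), and Txnip, an inhibitor of thioredoxin and of glucose uptake, with 776 counts (PKCi) and 64 counts (CON) (12.1-fold higher, 95% interval 9.40 to 15.9). Ccng2, an atypical cyclin that slows the cell cycle, was at 87.8 CPM (PKCi) and 12.7 CPM (CON) (6.92-fold higher, 95% interval 5.98 to 8.06), and Trp53inp1, which takes part in p53 responses and autophagy, at 133 CPM (PKCi) and 30.1 CPM (CON) (4.43-fold higher, 95% interval 4.01 to 4.90).

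Some well-known FOXO targets did not differ in that way, while others named beside them here did. The cell cycle inhibitor gene Cdkn1b was at 122 CPM in the PKCi library and 113 CPM in the CON library (1.08-fold, 95% interval 1.01 to 1.15). Sesn3, a stress-induced inhibitor of mTORC1, was lower, at 159 CPM (PKCi) and 218 CPM (CON) (1.38-fold lower, 95% interval 1.31 to 1.45). The other genes here were named after their values were seen. Cdkn1a was at 82.1 CPM (PKCi) and 37.2 CPM (CON) (2.20-fold higher). Bcl2l11 was at 28.4 CPM (PKCi) and 8.39 CPM (CON) (3.38-fold higher), and Bbc3 at 18.2 CPM (PKCi) and 5.66 CPM (CON) (3.22-fold higher). They are among the 17 genes of the list at least 2-fold higher, beside 1 lower by as much. Sesn1 was at 11.8 CPM (PKCi) and 13.4 CPM (CON), and Sesn2 at 52.9 CPM (PKCi) and 53.0 CPM (CON). The catalase gene Cat was at 57.4 CPM (PKCi) and 60.6 CPM (CON), whereas Sod2, mitochondrial superoxide dismutase, was at 146 CPM (PKCi) and 69.9 CPM (CON) (2.09-fold higher). Gadd45b, a stress response gene, was the gene at least 2-fold lower, at 8.77 CPM (PKCi) and 19.0 CPM (CON), while its relative Gadd45a was at 41.8 CPM (PKCi) and 22.7 CPM (CON). Autophagy genes of the list stood at 340 CPM (PKCi) and 120 CPM (CON) for Map1lc3b (2.82-fold higher), 66.2 CPM (PKCi) and 30.5 CPM (CON) for Ulk1 (2.17-fold higher) and 58.4 CPM (PKCi) and 41.6 CPM (CON) for Gabarapl1 (1.40-fold higher). Of the 11 listed genes that were not measured, 8 had 0 counts in both libraries, among them Pck1, G6pc, Igfbp1 and Pdk4, the metabolic targets best known from liver and muscle.

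Genes that FOXO factors are known to repress had a median of −0.41 over 6 measured, with 1 higher and 0 lower by 2-fold or more. The cyclin gene Ccnd1 was at 534 CPM in the PKCi library and 949 CPM in the CON library (1.78-fold lower), Ccnd2 at 181 CPM (PKCi) and 272 CPM (CON) (1.51-fold lower), and Foxm1, a mitotic transcription factor, at 146 CPM (PKCi) and 269 CPM (CON) (1.84-fold lower), all 3 named after their values were seen. Of the 6, 2 lay above 0 and 4 below. Myc, the gene of a transcription factor that drives cell growth, had 128 CPM in the PKCi library and 101 CPM in the CON library (1.27-fold higher, 95% interval 1.19 to 1.35), and was likewise named after its value was seen. The gene at least 2-fold higher was the AP-1 subunit gene Jun, at 186 CPM (PKCi) and 75.7 CPM (CON) (2.46-fold).

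**Figure D4:**
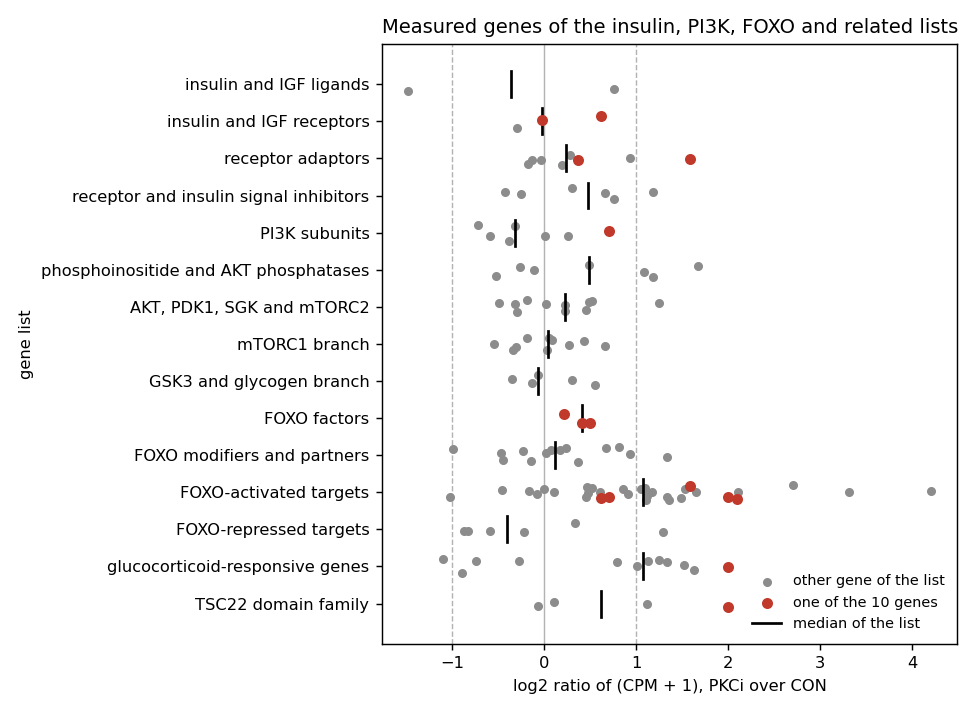
Log2 ratio of (CPM + 1), PKCi over CON, of each measured gene of 15 lists, with the 10 genes in red, other genes in grey and the median of each list as a black bar; dashed lines mark 2-fold and a gene can stand in several lists. The lists of FOXO-activated targets and glucocorticoid-responsive genes have medians of 1.07, and the other lists have medians between −0.41 and 0.61.

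Over the 15 lists, 122 of 147 distinct genes were measured, 29 of them higher and 3 lower by 2-fold or more, and 17 of the 29 stood in the list of FOXO-activated targets. Without the 10 genes, 26 of 112 were at least 2-fold higher, 3 lower by as much, and the median log2 ratio was 0.22. Among all measured genes 6.53% were higher and 5.13% lower by that margin. The lists were written with results of these libraries known, so nothing is read from that difference. All 10 genes had the same coordinates in GENCODE release M21 as in the table, and no annotated gene whose exons overlap theirs had more than 7 counts in a library; reads of such partners on opposite strands cannot be told apart where strand was not used in counting.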

How the data were processed

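RNA-seq of 2 libraries was analysed, 1 per group, grouped by the treatment in the labels. The submitters' processing notes name the aligner HISAT2 (version 2.0.5) with GRCm38 and mm10 as builds. How reads were counted, on which strand and on which annotation is not given in the sources used here. Per the labels' descriptions, a stranded kit was used, while another protocol text in the labels names a kit that does not mark strand. The authors deposited 1 table of whole-number counts per gene, used as raw counts although its name speaks of FPKM, with gene lengths in bases. All of its sample columns were assigned.

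Counts were scaled to the library total (CPM) or, to compare genes, divided by listed length and scaled to TPM. Measured genes had at least 1 CPM in a library, and a pseudocount of 1 CPM entered log2 ratios, which shrinks those of low genes; folds are plain ratios. No test was possible with 1 library per group. The procedure was tested on simulated counts that held counting error only. These had no spread between cultures, so they cannot show how reliable a 2-fold difference between single libraries is. The 10 genes and all lists were chosen with earlier results of these data known. The naming rule took the 10 genes, every list member at least 2-fold apart (the 6 largest where more) and 18 others such as Pik3ca and Akt1, not all of them reported here; exceptions are marked. A symbol at several genes stood for the one with most counts. Promoter sequences are from RefSeq (GRCm38.p6), matched by symbol for 7 of 10 genes; protein sequences were not used here. Python 3.11.15, scipy 1.17.1 and edgeR 4.0.16 (TMM factors only) were used.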

Additional observations from a re-analysis of the deposited data

How the results depend on the processing

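Among the 10 genes, 3 passed 2-fold upwards and 0 downwards under TMM scaling, median-of-ratios scaling, TPM scaling, a total without the 10 most abundant genes, and pseudocounts of 0.5 and 5 CPM. The log2 ratios of Fbxo32, Tsc22d3 and Irs2 ranged from 1.46 to 2.22, 1.70 to 2.04 and 1.46 to 1.60 in that order, lowest with 5 CPM. Of 60 such values for the 10 genes, 58 moved by at most 0.5 times the width of the counting interval on the log2 scale. The others were Fbxo32 and Tsc22d3 with 5 CPM. Of 344 other list counts and medians, 13 moved, by over 1.5 times or to or from 0 (counts) or by over 0.25 (median log2 ratio). FOXO-activated targets at least 2-fold higher numbered 17 under the alternatives run, and those lower 0 with 5 CPM. Over all genes, 1398 were higher and 985 lower with TPM, where more genes passed the filter, 449 and 324 with 5 CPM, and 2058 and 2048 at a 1.5-fold threshold. From CPM in place of TPM, Irs2 made up 54.8% (PKCi) and 33.9% (CON) of the IRS adaptors and Insr 29.0% and 20.7% of the receptors, since lengths differ. Igf1 passed the 1 CPM filter by CON alone and was under it with TPM, and under 2-fold with 5 CPM. With 5 CPM 1 phosphatase gene was at least 2-fold higher. With 1 library per group, spread between cultures is unknown. No paired analysis was possible because each group holds a single library.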
